A study of Homo sapiens with 14 samples.

Results

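The ESCRT-0, ESCRT-I and ESCRT-II subunits are 10 genes whose guides were taken by gene symbol from a pooled CRISPR interference screen of 18905 genes. They are HGS, STAM and STAM2 of ESCRT-0, TSG101, VPS28, VPS37A and UBAP1 of ESCRT-I, and VPS25, SNF8 and VPS36 of ESCRT-II. Each had 5 guides at 1 start, 50 guides in all. Of the 10 genes, 9 could be compared between bright and dim cells. The guides of VPS28 are in sublibrary H4, for which only the dim library was used, so VPS28 is described by abundance alone.

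All cells came from HEK293 FLP-In, a human embryonic kidney line with a docking site for a transgene. They carried the delta opioid receptor (DOR) fused to the peroxidase APEX2 under the pUBC promoter (pUBC-SSF-DOR-APEX2), together with dCas9-KRAB-BFP, a repressor that a guide RNA brings to a gene's start. The cells were clones grown from BFP-sorted cells, and the labels do not say how many clones entered the screen. Guides came in by lentivirus at about 0.2 per cell, with 0.75 µg/ml puromycin for 3 days. The top libraries hold the guides of the brightest quartile and the bottom libraries those of the dimmest quartile of the cells of 1 sublibrary, after 90 minutes with the opioid peptide DADLE at 10 µM and 1 minute of reaction with Amplex UltraRed and hydrogen peroxide. Both groups of every sublibrary thus share the transgenes, 8 days of culture with guides and the agonist, and they differ only in the sort gate. There was 1 top and 1 bottom library per sublibrary, so no difference below has a replicate check and none was tested.

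ESCRT complexes move ubiquitinated membrane proteins from the surface of the endosome into its lumenal vesicles, from where they reach the lysosome. ESCRT-0 gathers the cargo, ESCRT-I receives it, and ESCRT-II connects ESCRT-I to the filaments of ESCRT-III that close the vesicle. DOR is known as a receptor that is carried to lysosomes after strong activation. Most ESCRT subunits have no enzymatic activity and work as binding surfaces for ubiquitin, for the endosomal lipid PI3P and for each other.

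Guides of this library act near a gene's start, where dCas9 binds beside an NGG motif (PAM). The guide sequences are not shown here. The 250 bases before the annotated start of HGS and UBAP1, the members farthest toward bright cells, and of TSG101, the ubiquitin receptor of ESCRT-I, give the surroundings of their starts. They are from RefSeq on GRCh38.p14, 5′ to 3′ on the strand of the gene, with the GG of each NGG and the CC of each CCN (NGG on the other strand) in capitals.
HGS, chr17:81683761-81684010, plus strand: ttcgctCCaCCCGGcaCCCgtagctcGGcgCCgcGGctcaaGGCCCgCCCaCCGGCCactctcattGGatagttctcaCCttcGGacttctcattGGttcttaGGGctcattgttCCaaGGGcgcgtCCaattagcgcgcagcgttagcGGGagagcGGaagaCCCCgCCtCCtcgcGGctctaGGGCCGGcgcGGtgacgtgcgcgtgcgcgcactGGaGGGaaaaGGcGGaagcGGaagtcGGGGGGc
UBAP1, chr9:34178793-34179042, plus strand: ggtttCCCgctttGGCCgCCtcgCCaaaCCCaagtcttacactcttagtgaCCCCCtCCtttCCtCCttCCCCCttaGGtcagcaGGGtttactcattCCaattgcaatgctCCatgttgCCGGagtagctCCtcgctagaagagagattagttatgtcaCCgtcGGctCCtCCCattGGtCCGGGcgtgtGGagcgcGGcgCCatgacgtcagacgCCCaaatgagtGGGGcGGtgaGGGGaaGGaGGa
TSG101, chr11:18526943-18527192, minus strand: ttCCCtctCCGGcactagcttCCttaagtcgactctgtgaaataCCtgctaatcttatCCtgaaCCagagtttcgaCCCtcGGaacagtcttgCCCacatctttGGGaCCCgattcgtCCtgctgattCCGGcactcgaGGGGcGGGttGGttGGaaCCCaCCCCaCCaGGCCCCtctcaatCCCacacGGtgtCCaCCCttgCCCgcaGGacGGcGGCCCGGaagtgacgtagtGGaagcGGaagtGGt
The HGS window held 52 such motifs counted on both strands with overlaps, that of UBAP1 50 and that of TSG101 54. UBAP1 also had a window at another annotated start, chr9:34178755-34179004, which held 45 and is not printed. The median over 35116 windows of the same length was 48, and 35114 of these windows held at least 1. Each of these genes had 5 guides, and the motif counts do not show which motifs these guides use. The windows cover only bases before the annotated start. A window was found for 8 of the 10 members, VPS28 and VPS37A being the others. No source used here names the genome build of the positions in the guide names. The first HGS position there, 79651058, lies far from the HGS window, which starts at 81683761. The first UBAP1 position, 34179122, lies just past the printed UBAP1 window, which ends at 34179042. With no build named, neither was read as a place relative to the start. For these reasons guides were not placed on the windows.

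A guide's value is log2(top/bottom) of its counts, each raised by 1 and divided by the library total, minus the non-targeting median of its sublibrary. A positive value means a larger share in bright cells. For each gene the guides were averaged, and the SD is the spread between guides, not between sorts. A gene was called at a mean of at least 0.5 on this scale, a 1.41-fold share, in either direction. HGS was in H1, TSG101 in H2 and the other 7 compared members in H3, so HGS and TSG101 come from other sorts than the rest. The 12 compared libraries held 18054418 to 34636612 counts. The compared member guides had 488 to 8180 counts per library, and all 45 passed the minimum of 50 counts. The non-targeting guides, which match no gene, had an SD of 0.265 in H1, 0.240 in H2 and 0.215 in H3 (n = 250, 280 and 290 guides). The 95% counting interval of a member guide was 0.138 to 0.294 wide (exact binomial). It covers counting error only, since reads copied by PCR and carrying no molecular identifier do not each stand for a molecule.

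HGS and UBAP1 were called toward bright cells, and 0 members were called toward dim cells. The background was 1.89% of all 18116 targets (gene starts) past the fold toward bright cells and 1.00% toward dim cells, against 2 and 0 of 9 members. Within the members' own sublibraries the share toward bright cells was 2.04% in H1, 2.71% in H2 and 2.26% in H3. Of the 9 means, 6 lay above 0, against 52.6% of all targets. The median of the members' means was 0.15, and that of all targets 0.01. By complex, the medians were 0.15 for ESCRT-0, 0.29 for ESCRT-I and -0.03 for ESCRT-II (n = 3 genes each). Of the 45 guides, 8 were at or above 0.5, or 17.8%, against 4.93% of all guides in targets of the compared sublibraries. These 8 belonged to HGS, UBAP1, VPS36 and TSG101, and guides to 1 gene share their target. The third UBAP1 guide, at 0.50 after rounding, was just under and is not among them.

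**Figure D1:**
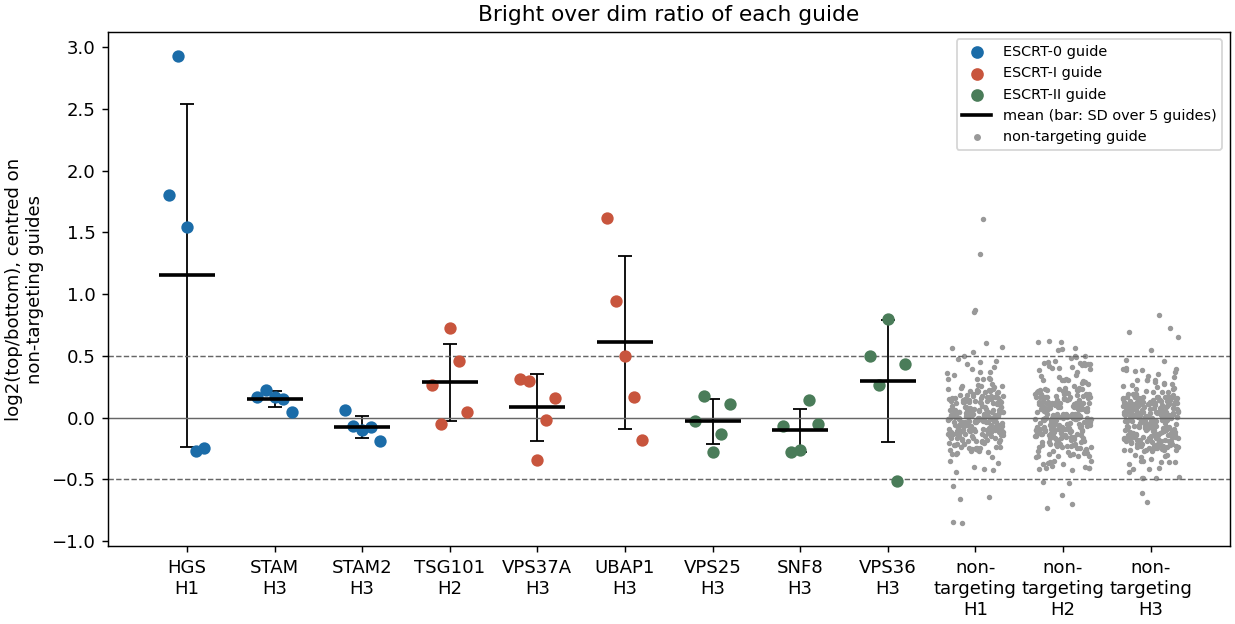
The log2(top/bottom) ratio of each guide is plotted for the 9 compared members and, at the right, for the non-targeting guides of the same 3 sublibraries; black lines are means, bars the SD over 5 guides, dashed lines the call at 0.5 and -0.5. HGS has 3 guides between 1.55 and 2.93 and the others below 0, whereas the 5 STAM guides lie between 0.04 and 0.22.

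HGS, the ESCRT-0 subunit that holds PI3P, ubiquitinated cargo and clathrin on early endosomes, had a mean of 1.15 ± 1.39 (SD, n = 5 guides), a 2.22-fold larger share in bright cells. In the direction of transcription its guides had 3594, 8180, 3339, 971 and 2355 counts in the top library, against 827, 860, 917, 938 and 2247 counts in the bottom library. The first 3 guides were far richer in bright cells and the other 2 were near even or slightly richer in dim cells, given a top library that was larger in all (28350283 counts, against 22782124 in the bottom library).

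The centred ratios of the HGS guides were 1.80, 2.93, 1.55, -0.27 and -0.25. The highest of these is a 7.63-fold share, with a counting interval of 2.83 to 3.04 on the log2 scale. The first and the second guide lay above all 250 non-targeting guides of H1 and the third below 1 of them, which reached 1.61. The gap between the 2 sets of HGS guides was many times their counting error. HGS ranked 8 of 2555 targets in H1 and 64 of all 18116, while DNAJC13, the gene in the title of the study, ranked 173 with 0.73 ± 0.25 (SD, n = 5 guides). Any 1 guide left out, the HGS mean stayed between 0.71 and 1.51. Since 3 of 5 guides lay on the side of the mean, HGS was not called where at least 80% of the guides had to do so, a rule that UBAP1 alone of the members passed and that 1.66% of all targets passed.

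STAM and STAM2 are paralogues that bind HGS and ubiquitin and bring deubiquitinases to the complex. STAM had 2047, 1948, 2086, 2646 and 2638 counts in the top library, against 1591, 1457, 1619, 2076 and 2234 counts in the bottom library. All 5 STAM guides lay on the bright side, from 0.04 to 0.22, and the mean was 0.15 ± 0.07 (SD, n = 5 guides), not called. STAM was the 1 compared member with all guides above 0, which 5.99% of all targets shared. Between 31 and 114 of the 290 non-targeting guides of H3 were as high as each STAM guide, so no single one stood apart.

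STAM2 had 962, 1574, 2186, 1880 and 3434 counts in the top library, against 806, 1441, 2048, 1725 and 3415 counts in the bottom library. Its mean was -0.07 ± 0.09 (SD, n = 5 guides), with guides from -0.19 to 0.06, and it was not called. The SDs of STAM and STAM2 were the lowest of the 9 members. The guides of the 2 paralogues, measured in the same pair of libraries, overlapped only at the low end of STAM. Its lowest guide at 0.04 lay below the highest of STAM2 at 0.06. Both means were closer to 0 than the non-targeting SD of H3, 0.215. The difference between the paralogues was not tested, and guides are not replicates of the sort.

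In ESCRT-I, UBAP1, a subunit of the form of the complex that works at endosomes and that binds ubiquitin, was called toward bright cells. Its guides had 1717, 3768, 1560, 1978 and 1406 counts in the top library, against 488, 1705, 963, 1541 and 1391 counts in the bottom library. The ratios were 1.62, 0.95, 0.50, 0.16 and -0.18, a decline along the direction of transcription that left the last guide slightly below 0.

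The mean of UBAP1 was 0.61 ± 0.70 (SD, n = 5 guides), a 1.53-fold share, at rank 57 of 3323 targets in H3 and 245 of all 18116. The first and the second guide lay above all 290 non-targeting guides of H3, whose highest was 0.83. Without the first guide the mean was 0.36 and the call was lost. The median over guides, which is the third guide's value of 0.50 after rounding, lay just under the call.

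TSG101, which binds ubiquitin and a short motif of HGS, averaged 0.29 ± 0.31 (SD, n = 5 guides), under the call. It had 2149, 3543, 3137, 1640 and 1710 counts in the top library, against 1409, 2894, 1495, 941 and 1307 counts in the bottom library. The ratios were 0.26, -0.05, 0.72, 0.46 and 0.04. The third guide lay above all 280 non-targeting guides of H2, whose highest was 0.62. The third and the fourth guide, at 149 and 164 bases from the first, were the highest, and the outer ones were lower. TSG101 ranked 189 of 3209 targets in H2.

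VPS37A, the ESCRT-I subunit that UBAP1 pairs with, had a mean of 0.08 ± 0.27 (SD, n = 5 guides), not called. In the order of the positions in their names, its guides had 2443, 2206, 1246, 3646 and 1879 counts in the top library, against 1712, 1566, 1377, 3216 and 1468 counts in the bottom library. The ratios of 0.32, 0.30, -0.34, -0.01 and 0.16 fell on both sides of 0, and no VPS37A guide reached 0.5.

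In ESCRT-II, VPS36, which binds PI3P and ubiquitin, had the highest mean, 0.30 ± 0.49 (SD, n = 5 guides), and was not called. Its guides had 2122, 2223, 1331, 1361 and 2148 counts in the top library, against 1307, 1618, 669, 1699 and 1386 counts in the bottom library. The ratios were 0.50, 0.26, 0.80, -0.52 and 0.44. Of the VPS36 guides, 4 of 5 were on the bright side; the fourth was the 1 member guide at or below -0.5, lower than 288 of 290 non-targeting guides. Without it the mean was 0.50, just under the call. VPS36 ranked 159 of 3323 targets in H3.

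VPS25, which joins ESCRT-II to the ESCRT-III subunit CHMP6, had a mean of -0.03 ± 0.18 (SD, n = 5 guides). Its guides had 2177, 2418, 1877, 1586 and 2942 counts in the top library, against 1935, 1870, 1991, 1516 and 2374 counts in the bottom library. The ratios ran from -0.28 to 0.17 on both sides of 0, so VPS25 stayed within the spread of the non-targeting guides.

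SNF8, the third ESCRT-II subunit, had the lowest mean of the 9, -0.10 ± 0.17 (SD, n = 5 guides). Its guides had 1713, 1665, 1172, 1862 and 2098 counts in the top library, against 1569, 1767, 1225, 1472 and 1896 counts in the bottom library. With ratios from -0.28 to 0.14 no SNF8 guide stood apart from the non-targeting guides. The counts do not show how far any guide repressed its gene, so a mean near 0 does not show that a subunit has no part in the signal.

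Ordered by mean, the members were HGS (1.15), UBAP1 (0.61), VPS36 (0.30), TSG101 (0.29), STAM (0.15), VPS37A (0.08), VPS25 (-0.03), STAM2 (-0.07) and SNF8 (-0.10). Every neighbouring pair in this order differed by less than the larger of their SDs over guides, HGS and UBAP1 included. At least 2 guides at or above 0.5 were found for 3 of 9 members, HGS, UBAP1 and VPS36, against 3.55% of all targets. At least 3 such guides were found for HGS, against 1.47% of all targets. These counts of guides were chosen after the values were seen.

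The high guides of HGS and UBAP1 lay close together. The first 3 HGS guides, at 79651058, 79651094 and 79651112 in the guide names, span 54 bases and averaged 2.09. The other 2, at 221 and 421 bases from the first, averaged -0.26. The first 3 UBAP1 guides, at 34179122, 34179139 and 34179147, span 25 bases and averaged 1.02, while the other 2, at 323 and 450 bases, averaged -0.01. The chromosomes are 17 for HGS and 9 for UBAP1.

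The plot of ratio against distance shows the same layout in part for VPS36, whose first 3 guides, within 28 bases, averaged 0.52 and whose last 2, at 390 and 424 bases, averaged -0.04. VPS36's last guide at 0.44 departs from it. In TSG101 the difference between the first 3 and the last 2 guides was 0.06, in STAM 0.09 and in STAM2, whose guides all lie within 74 bases, 0.09. It was -0.04 in VPS25 and -0.25 in SNF8. The first 3 were thus higher in 6 of the 8 members with a known strand, by only 0.06 to 0.09 in TSG101, STAM and STAM2. They were higher in 50.8% of 12705 targets with 5 guides and a strand. Among the 255 of these targets called toward bright cells it was 65.9%. A difference of at least 1, as in HGS (2.35) and UBAP1 (1.03), was found in 0.496% of the 12705 targets and in 12.9% of the 255. The layout was noticed in these data and was not tested.

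**Figure D2:**
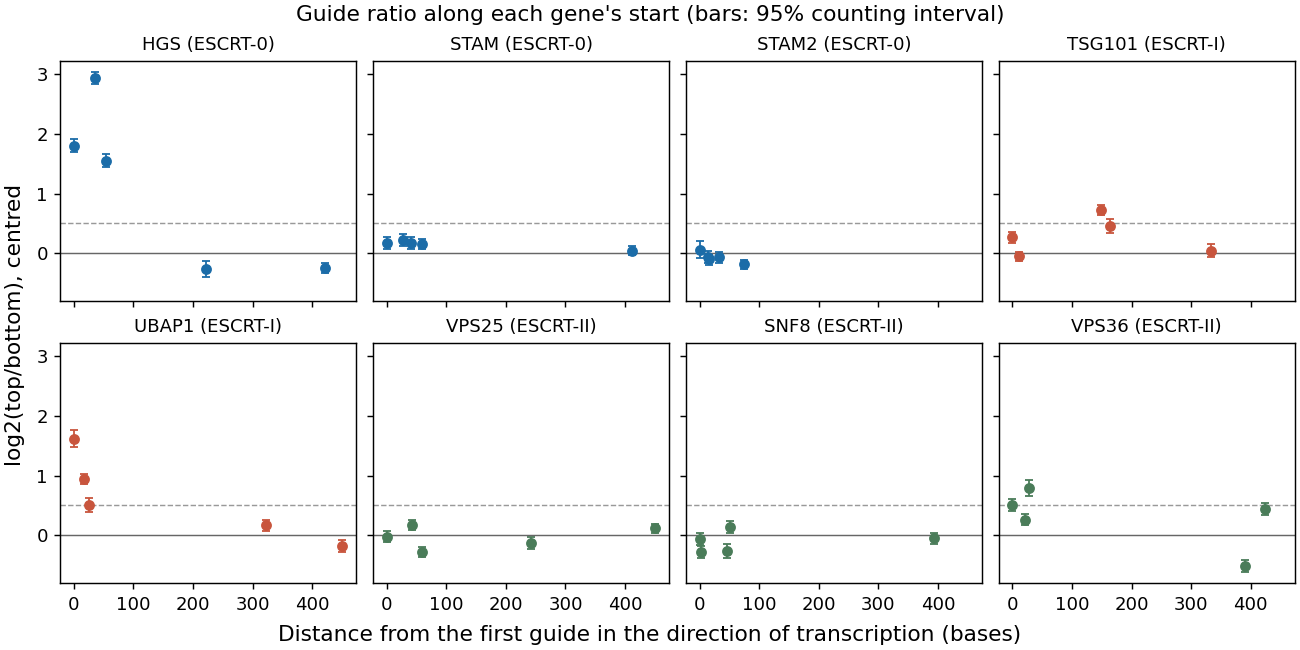
The log2(top/bottom) ratio of each guide is plotted against its distance in bases from the gene's first guide in the direction of transcription, with 95% counting intervals, for the 8 compared members with a known strand. The 3 guides at the left are the high ones in HGS (1.80, 2.93 and 1.55) and UBAP1 (1.62, 0.95 and 0.50), and TSG101 is highest at 149 and 164 bases.

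Repression near a start can reach an adjacent gene. Within 1000 positions of a member's guides there were guides for ARL16, 274 positions from the nearest HGS guide, and for CNOT7, 132 positions from the nearest VPS37A guide. ARL16, a small GTPase, had -0.03 ± 0.04 (SD, n = 4 guides, H7), and HGS had 1.15 in H1. CNOT7, a deadenylase of the CCR4-NOT complex, had 0.11 ± 0.13 (SD, n = 5 guides, H5), and VPS37A had 0.08 in H3. Each neighbour was read in another sort than the member. Whether a member's guides also repressed the neighbour was not tested. No member guide was at a position also listed for another gene.

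How often a guide occurred in the sorted cells is another reading of the same counts, not an independent one. It is given as the log2 of a guide's count plus 1 relative to the median non-targeting guide. There was no library from before the sort or from the guide pool, so fewer cells and a rarer guide from the outset cannot be told apart. Summed over top and bottom, the mean abundances of the 9 members in H1, H2 and H3 lay between -0.13 for VPS36 and 0.26 for VPS25. The value of HGS was 0.18 ± 0.80 and that of UBAP1 -0.12 ± 0.51 (SD, n = 5 guides each). None of the 9 members was at or below -0.5, against 21.3% of 20528 targets, and none was at or above 0.5, against 6.96%. These shares pool all 7 sublibraries, with H4 by its bottom library alone, and are not matched to H1, H2 and H3. The abundance of non-targeting guides spread more widely in H6 and H7 (SD 1.27 and 1.53) than in H3 (0.686). With means between -0.13 and 0.26, the compared members lay near the median non-targeting guide in summed abundance.

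Within genes the brightest guides were not of one abundance. The second HGS guide, the brightest of all, had a summed abundance of 1.25, the highest of the 50 guides. In UBAP1 the brightest guide had -0.62 and in VPS36 -0.76, the lowest of their genes.

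In each library alone, the first 3 HGS guides had 0.77, 1.96 and 0.67 in the top library, against values from -1.05 to -0.91 in the bottom library, above the non-targeting median in the one and below it in the other. The fourth guide had -1.11 in the top and -0.87 in the bottom library, low in both. For UBAP1 the first guide had -0.07 in the top and -1.70 in the bottom library, and the second 1.06 and 0.10. The non-targeting guides themselves varied in summed abundance with an SD of 1.04 in H1 and 0.686 in H3, and without a library from before the sort the side on which a guide's imbalance arose cannot be told apart.

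VPS28, which connects ESCRT-I to ESCRT-II, was seen in the H4 bottom library alone. In the order of positions its guides had 1124, 1370, 197, 855 and 296 counts, or -0.28, 0.01, -2.78, -0.67 and -2.20 relative to the non-targeting median. The third and the fifth were rare among dim cells, and the first 2 close to the non-targeting guides. The 2 common guides lie within 5 bases of each other, and the rarer ones 381 to 400 bases away.

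The mean of VPS28 was -1.19 ± 1.23 (SD, n = 5 guides), at rank 29 from the lowest of 2410 targets of H4, where 16.7% of targets were at or below -0.5 and 2.74% at or below -1. The non-targeting guides of H4 ran from -2.85 to 1.11. In the bottom libraries alone HGS had -0.69, UBAP1 -0.51 and VPS36 -0.32, and each of these was higher in the top library. These are the members with the highest ratios, which are formed from the same counts. The remaining compared members lay between -0.05 for TSG101 and 0.27 for VPS25 in the bottom libraries. Whether the VPS28 guides were rare in dim cells because they were frequent in bright cells, or rare in all cells, cannot be told apart without the top library.

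**Figure D3:**
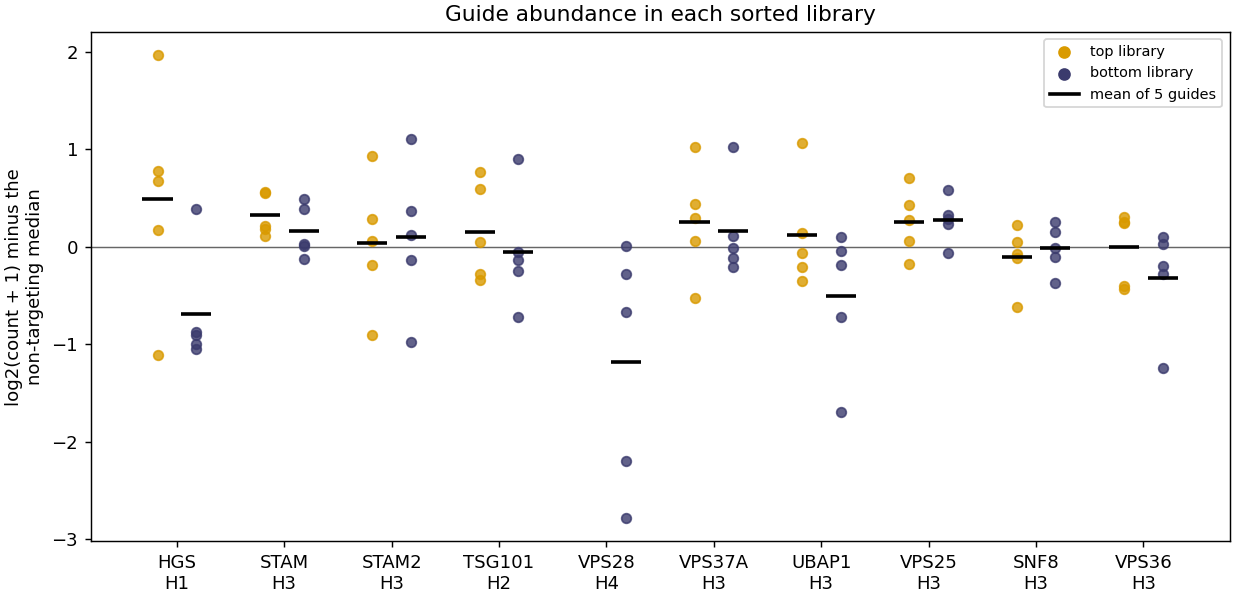
The abundance of each guide, log2 of its count plus 1 minus the non-targeting median of the library, is plotted for the top library and, beside it, the bottom library of all 10 members; black lines are means of 5 guides. HGS has 4 bottom values between -1.05 and -0.87, and VPS28, with a bottom library alone, has 2 guides at -2.78 and -2.20.

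ESCRT-III and its ATPase VPS4, which close and release the vesicle, had 1 of 11 compared genes called toward bright cells and 0 toward dim cells. The shares over all targets were 1.89% and 1.00%. The median of the list was 0.10. The called gene was CHMP6 at 1.08 ± 0.43 (SD, n = 5 guides), the ESCRT-III subunit that ESCRT-II binds. All 5 CHMP6 guides, from 0.65 to 1.71, lay above 0, whereas VPS25, the ESCRT-II subunit that contacts it, had -0.03. Of 15 genes of the list in the library, 4 were in H4.

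Paralogues and partners of the members had 0 of 11 called in either direction and a median of 0.04. With 1.89% of all targets called toward bright cells and 1.00% toward dim cells, 0 of 11 does not set this list apart. The farthest were the ESCRT-I subunits VPS37C at 0.31 ± 0.57 and MVB12B at 0.24 ± 0.26 (SD, n = 5 guides each). Next came the ESCRT-I subunits VPS37D at -0.19 ± 0.52 and MVB12A at -0.14 ± 0.15, on the other side of 0. Each of the latter had 1 of 5 guides above 0. VPS37B, another paralogue of VPS37A, was in H4. Adaptors and deubiquitinases had 0 of 5 called, also not set apart from the shares over all targets, and a median of -0.05. USP8, a deubiquitinase that binds STAM, had 0.30 ± 0.35 with 4 of 5 guides above 0. PTPN23, an adaptor of ESCRT-I and ESCRT-III, had 0.29 ± 0.84 (SD, n = 5 guides), with 1 guide at 1.78 and the others at or below 0.

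Of the later and the recycling machinery, the list for the HOPS and CORVET tethers, which bring endosomes to lysosomes, had 5 of 9 compared genes called toward bright cells. It had 0 called toward dim cells and a median of 0.55. Over all targets, 1.89% were called toward bright cells and 1.00% toward dim cells. The subunits VPS33A (0.40 ± 0.48) and VPS8 (0.29 ± 0.22, SD, n = 5 guides each) were not called, and TGFBRAP1 was in H4. The list also held VPS33B (-0.01 ± 0.16) and VIPAS39 (-0.06 ± 0.09, SD, n = 5 guides each), which are not subunits of HOPS or CORVET. The called genes were VPS16 (2.11 ± 0.51), VPS41 at its first start (1.19 ± 0.81), VPS39 (1.01 ± 0.42), VPS11 (0.80 ± 0.44) and VPS18 (0.55 ± 0.52), with n = 5 guides each. Retromer, which returns cargo from endosomes, had VPS29 (0.72 ± 0.57, SD, n = 5 guides) called of 4 and a median of -0.01. The members' median of 0.15 lay between those of the HOPS and CORVET list and of retromer. Differences between the lists were not tested. All of these lists were chosen with earlier results of these data known.

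**Figure D4:**
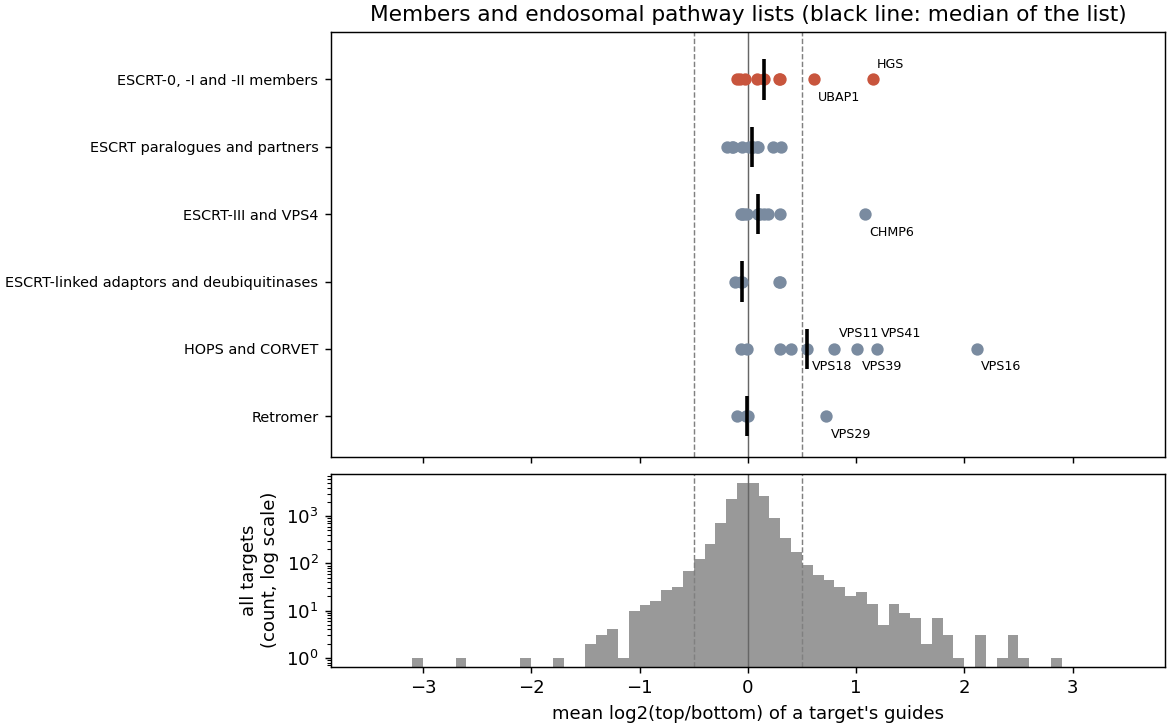
The mean log2(top/bottom) of each gene is plotted for the 9 compared members (upper row) and 5 lists of endosomal genes, with the histogram of all 18116 targets on a log count axis below; dashed lines mark the call, and called genes are named. The members hold 2 called genes, HGS and UBAP1, and the list for HOPS and CORVET holds 5 of 9, VPS16 at 2.11 the farthest. Of all targets, 1.89% were called toward bright cells.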

How the data were processed

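Per the labels' protocols, guides of the hCRISPRi-v2-top5 library were amplified from genomic DNA of sorted cells in 27 cycles. The authors deposited whole-number counts per guide with no normalization, 1 table per library. The submitters' processing notes name Bowtie; no version, genome build or mismatch setting is given in the sources used here. Guides not listed in a library were taken as 0 where the partner library listed them. The table of the H4 top library breaks off after 35 guides and was left out. Each of the 13 libraries used was its own group, from its title.

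Ratios were computed with Python 3.11.15, a pseudocount of 1, at least 50 counts in either library and at least 3 guides per target; 91088 of 91463 guides entered. With 1 library per group edgeR's test was not run and no p-value is given; the call is a mean of 0.5 or more in size. The calculation was tested on simulated data with known changes. For lists, 1 start per gene was taken (P1P2 or P1). Strand and chromosome came from RefSeq tables of GRCh38.p14 (18814 of 18905 symbols matched). All members are named. In each list, called genes, or otherwise the 2 farthest from 0, are named. The uncalled genes of the HOPS and CORVET list and further ESCRT-I subunits are named besides. The members and lists were chosen with earlier results of these data known.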

Additional observations from a re-analysis of the deposited data

How the results depend on the processing

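Under 16 alternatives to the pseudocount, filter, scaling, centring, summary and call, the number of members toward dim cells stayed 0 and that toward bright cells was 1 or 2. It was 1 with the median over guides (HGS; 1.51% of all targets; UBAP1 just under the call at 0.499), without the guide farthest from 0 (HGS; 1.04%), where 80% of guides had to share the sign of the mean (UBAP1; 1.66%) and with a call at 1 (HGS; 0.53%). HGS was called in 15 of the 16 and UBAP1 in 13. With the 3 farthest guides or a call at 0.3 the members' count stayed 2, while 4.16% and 4.75% of all targets passed, against 1.89%. The members' median ran from 0.14 to 0.19, the mean of HGS from 0.71 to 2.09 and that of UBAP1 from 0.36 to 1.02. Without its farthest guide VPS25, not called, had 0.03 in place of -0.03. In the bottom library alone the abundance of HGS was -0.69. Leaving out each guide in turn was chosen after seeing the data. No paired analysis was possible because the labels number no replicates and each group has 1 library. The counts give only the counting error of single guides, and the non-targeting guides spread more widely than that (SD 0.265 in H1, 0.240 in H2 and 0.215 in H3). The spread between sorts is unknown.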
